A study of Rattus norvegicus with 22 samples.

Results

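The comparison described here set rat microglia kept for 5 days in serum (FCS 5d, n = 4) against microglia kept for 1 day in serum (FCS 1d, n = 5), which are 9 of the 22 samples of the series. The members were the columns of these groups in the table of FPKM, a measure of RNA level that takes account of transcript length and library depth. A gene was tested where it reached 1 FPKM in at least 3 of the 22 samples, which held for 9691 of 17284 genes.

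Microglia came from brains of Sprague-Dawley rats of postnatal day 21 and were caught on dishes coated with an antibody to CD11b, a surface integrin of myeloid cells. All 9 cultures then lasted 8 days in TIC medium, a serum-free medium whose composition the labels do not give, and 10% fetal calf serum was present for the last 1 day in FCS 1d and for the last 5 days in FCS 5d. The age of the culture was therefore the same, but the FCS 5d cells had 3 days without serum before it and the FCS 1d cells 7 days, and the effects of these spans cannot be told apart. The series also holds cells that never met serum (TIC, n = 6), cells with serum for 3 days (FCS 3d, n = 4) and cells lysed at isolation (Acute, n = 3), which are cited as reference levels. The labels name 2 batches of library preparation and sequencing, each with every condition, but do not assign the samples to them, so values within a batch could not be given.

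Microglia are the resident macrophages of the brain. In the brain they depend on signals such as CSF1 receptor ligands and TGF-beta, and they are shielded from blood plasma by the blood-brain barrier. Serum in a culture dish brings them growth factors, lipids and plasma proteins that they would meet only after a vessel leak, and macrophages in serum are known to divide, to take up material and to alter their receptors. The comparison asks which genes differ between a long and a short exposure.

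The 14 genes listed to check that the cells are microglia, among them Csf1r, Trem2 and C1qa, were detected in all. They made up 1.45 to 1.77% of the summed FPKM at FCS 1d and 1.68 to 1.93% at FCS 5d. In the test given below, C1qa was higher and Tmem119 lower at FCS 5d, and the other 12 did not pass. Libraries differed in depth: the number of tested genes at 0 ran from 353 to 974 at FCS 1d and from 509 to 1295 at FCS 5d, with FCS 5d replicate 1 the highest. The low values of a library step by what 1 fragment is worth, which put the depths at 0.24 to 1 times that of FCS 1d replicate 3 in FCS 1d and at 0.21 to 1.2 times it in FCS 5d. Among the 9 libraries, replicate 5 of FCS 1d stood apart with a summed FPKM of 672963. The other FCS 1d libraries had 377227 to 434577 and those of FCS 5d 335470 to 412145. Elsewhere in the series, TIC replicates 5 and 6 had 696038 and 696189, and the Acute libraries 564301 to 696703. The 10 highest genes held 20.5 to 25.8% of the summed FPKM at FCS 1d and 12.4 to 15.0% at FCS 5d. Pearson correlations of log2(FPKM + 1) over the tested genes were 0.897 to 0.971 within FCS 1d, 0.918 to 0.974 within FCS 5d and 0.849 to 0.939 between them. In RNA from whole cultures, fewer cells of a type and less RNA per cell cannot be told apart.

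Of the 9691 genes, 521 (5.38%) differed at a Benjamini-Hochberg adjusted p under 0.05 in limma, 186 (1.92%) higher and 335 (3.46%) lower at FCS 5d than at FCS 1d. The unadjusted p was under 0.05 for 1715 genes, 663 higher and 1052 lower. The median gene changed by -0.07 on the log2 scale, with 4148 genes above 0 and 5446 below it. Falls were also the larger changes: 108 genes fell and 39 rose by more than 4-fold. In 162 of the genes called higher and 309 of those called lower, the 4 libraries of FCS 5d did not overlap the 5 of FCS 1d. Over all tested genes, libraries did not overlap in 453 higher (4.67%) and 725 lower (7.48%).

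**Figure D1:**
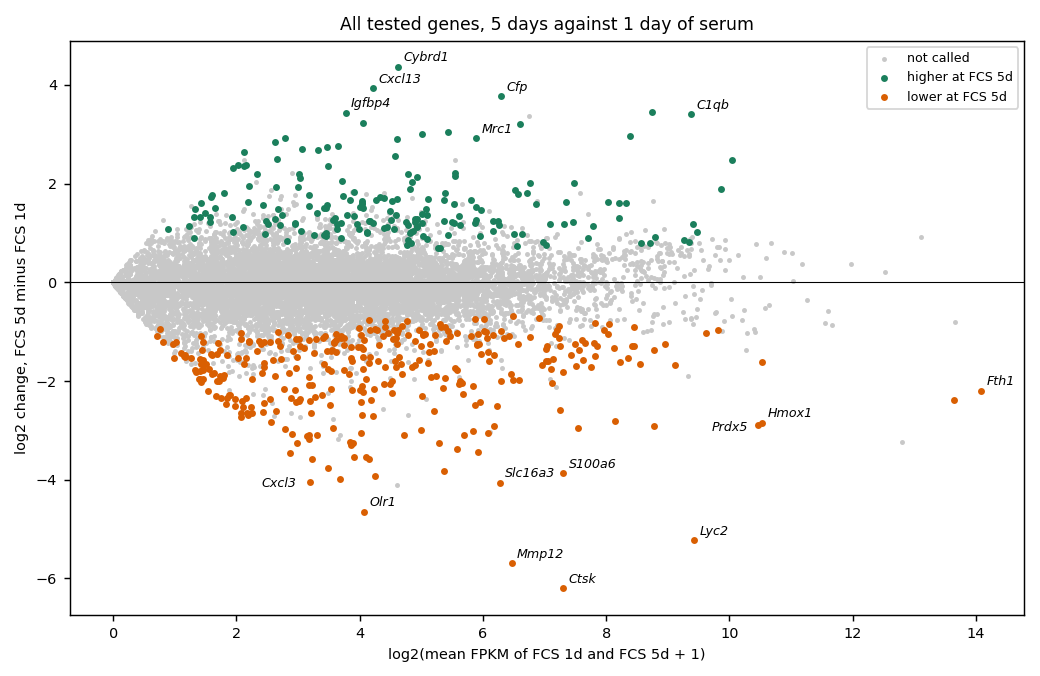
Each point is a tested gene, with its log2 change (FCS 5d minus FCS 1d) on the vertical axis and log2 of the mean FPKM of both groups plus 1 on the horizontal axis. The called genes include abundant ones that fell, such as Fth1, Hmox1, Prdx5 and Lyc2, and the largest rise is that of Cybrd1 at 4.37.

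Gene lists for pathways and cell states showed where these calls lay. Leaving aside the lists of other cells, the highest shares of called members were lower at FCS 5d for glycolysis and hypoxia genes (12 of 38), matrix and protease genes (7 of 25), osteoclast-like genes (5 of 18), cytokines and chemokines (11 of 40) and disease-associated microglia genes (9 of 33). Shares higher at FCS 5d were largest for mitosis genes (22 of 67), border macrophage markers (5 of 17) and complement genes (5 of 20). Against these stand the 3.46% lower and 1.92% higher among all tested genes. The list of cytokines and chemokines also holds receptors and enzymes.

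**Figure D2:**
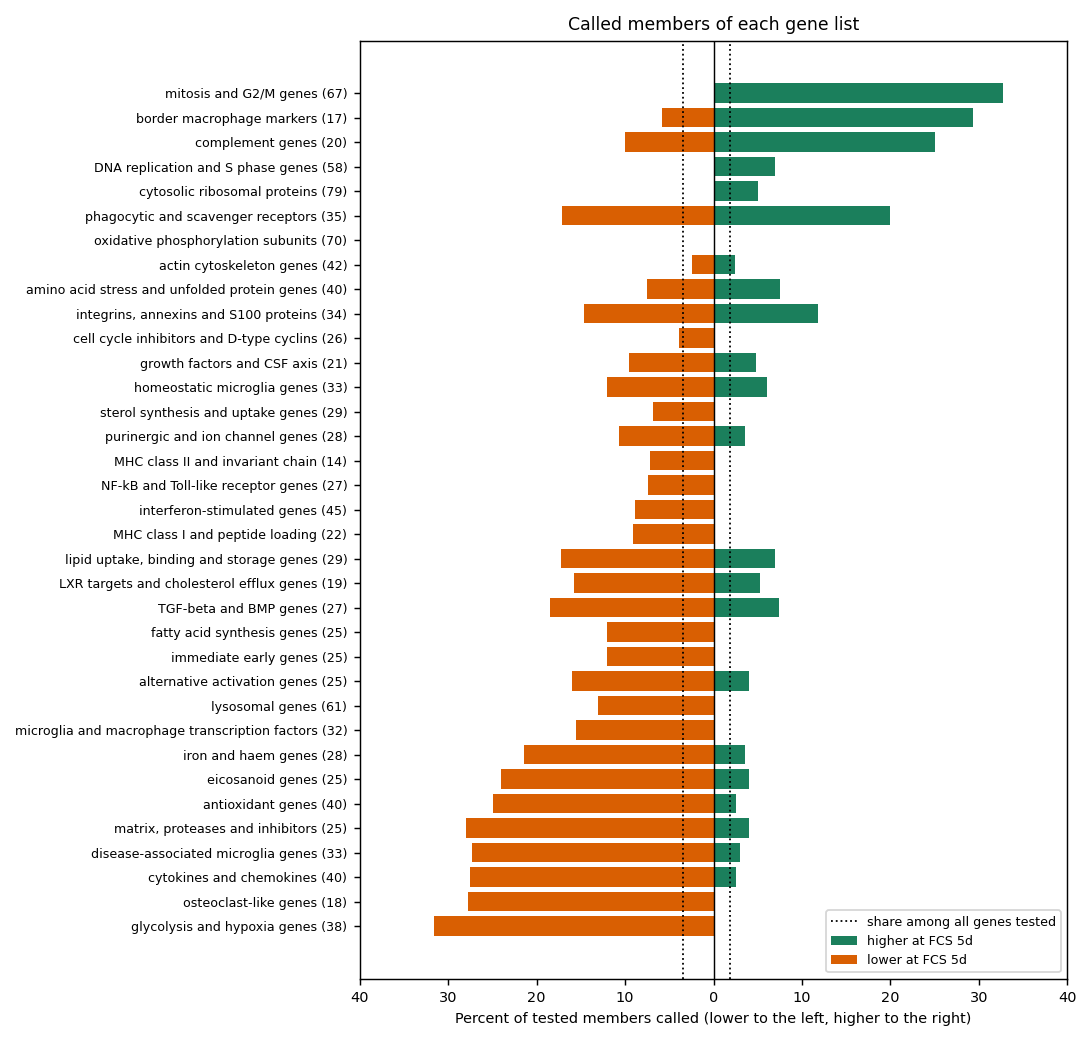
Bars give the percent of the tested members of each gene list that were called lower (left) or higher (right) at FCS 5d, with the number of tested members in brackets, and the dotted lines mark the 3.46% and 1.92% of all tested genes. Lists of other cells are not drawn. Of the lists drawn, the mitosis list reaches furthest to the right and the glycolysis list furthest to the left.

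Among the called genes without overlap, the steepest falls were in Ctsk and Mmp12, which both encode proteases. Ctsk, which encodes the collagen-degrading cathepsin K, was at 171, 70.2, 89.0, 169 and 1060 FPKM in the FCS 1d libraries and at 0, 2.71, 3.21 and 1.37 FPKM in the FCS 5d libraries. The groups were far apart, and replicate 5 of FCS 1d was the highest of all 9. Its log2 change was -6.20 ± 0.73 (SE, adjusted p = 7.6e-06), and -5.57 without FCS 1d replicate 5. Cells without serum had 92.7 to 880 FPKM of Ctsk and acute cells 4.02 to 23.0, so the FCS 5d libraries lay below both.

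Mmp12, the macrophage elastase, was at 208, 87.3, 112, 111 and 344 FPKM in FCS 1d and at 1.22, 0.643, 5.40 and 2.17 FPKM in FCS 5d. Every FCS 5d library was below every FCS 1d library. The mean fell from 172 ± 106 (SD, n = 5) to 2.36 ± 2.13 (SD, n = 4), a log2 change of -5.69 ± 0.56 (adjusted p = 7.6e-07). Mmp12 was listed at 0 in the acute cells, while TIC had 296 ± 213 (n = 6).

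Ctsk was a called member of the osteoclast-like list, and Mmp12 was not on that list. Other called members were Atp6v0d2, a subunit of the proton pump, Acp5, the tartrate-resistant acid phosphatase, Car2, a carbonic anhydrase, and the transcription factor Mitf. Atp6v0d2 was at 13.2, 12.2, 8.94, 11.7 and 131 FPKM in FCS 1d and at 0, 0.294, 1.31 and 0 FPKM in FCS 5d, with no overlap. Its log2 change of -3.92 (adjusted p = 0.0015) became -3.24 without FCS 1d replicate 5. Car2 fell from 128 ± 54.5 to 20.7 ± 6.35 FPKM (log2 change -2.51, adjusted p = 1.7e-05), and Acp5 from 19.1 ± 18.6 to 1.77 ± 0.368 FPKM (-2.49, adjusted p = 0.012). No osteoclast-like gene was called higher in limma, and at an unadjusted p under 0.05 the counts were 0 higher and 8 lower. The list's median log2 change was -0.82, beside -0.07 for all genes.

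Of 61 lysosomal genes tested, 8 were lower (13.1%, beside 3.46% of all genes) and 53 were not called. The list's median log2 change was -0.34. This list shares 3 genes with the osteoclast-like list. Members called lower included the cysteine protease Ctsl, at 2240 ± 528 FPKM in FCS 1d and 720 ± 92.4 in FCS 5d (log2 change -1.61, adjusted p = 0.00047). Lipa, the lysosomal acid lipase, went from 186 ± 61.0 to 71.2 ± 14.7 FPKM (-1.34, adjusted p = 0.0013). Cst7, the protease inhibitor cystatin F, was at 2.29 to 6.70 FPKM in FCS 1d and at 0 to 0.674 FPKM in FCS 5d.

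Of 25 matrix and protease genes tested 7 were lower and 1, Adam9, was higher. Mmp14, the membrane-bound collagenase, was at 72.5, 39.9, 62.8, 33.8 and 136 FPKM in FCS 1d and at 10.7, 5.02, 12.8 and 0.793 FPKM in FCS 5d. No FCS 5d library reached the lowest of FCS 1d, and replicate 4 was the lowest. The log2 change of Mmp14 was -3.26 (adjusted p = 0.0016), and -2.65 without FCS 5d replicate 4. Fn1, which encodes fibronectin, fell from 10.2 ± 4.30 to 1.44 ± 0.854 FPKM (-2.17, adjusted p = 0.0029). Tgm2, a transglutaminase that cross-links proteins, was at 11.6 to 70.8 FPKM and at 0 to 2.60 FPKM (-3.30, adjusted p = 0.00064). The single called rise, Adam9, was not called without FCS 1d replicate 1 or 2 or FCS 5d replicate 4.

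Of 38 tested genes of glycolysis and of the response to low oxygen 12 were lower at FCS 5d, 36 had a log2 change below 0, and the median was -0.76. Limma called 0 members higher, and 0 were higher at an unadjusted p under 0.05, where 20 were lower. The members called lower were the glucose transporter Slc2a1, the enzymes Tpi1, Pgam1, Eno1, Eno2 and Ldha, the lactate transporters Slc16a1 and Slc16a3, and Bnip3, P4ha1, Ero1a and Hif1a. Without FCS 5d replicate 2, or without FCS 5d replicate 4, the count was 7.

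Slc16a3, which encodes the lactate exporter MCT4, was at 98.2, 89.8, 140, 102 and 296 FPKM in FCS 1d and at 10.3, 3.08, 13.2 and 4.81 FPKM in FCS 5d. The ranges were wide apart. The ratio of the means was 18.5 (FCS 1d over FCS 5d), and the log2 change was -4.06 ± 0.62 (adjusted p = 0.00018). Slc2a1, which encodes the glucose transporter GLUT1, was at 86.2, 68.4, 81.4, 65.4 and 83.1 FPKM in FCS 1d and at 26.3, 20.2, 23.0 and 9.06 FPKM in FCS 5d. Within each group its libraries lay close together, except for the low FCS 5d replicate 4. It fell from 76.9 ± 9.33 to 19.6 ± 7.48 FPKM, a log2 change of -2 ± 0.29 (adjusted p = 9.4e-05).

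Among the genes known to be induced at low oxygen, Bnip3, which acts in the removal of mitochondria, fell from 52.6 ± 13.1 to 10.1 ± 3.74 FPKM (log2 change -2.30, adjusted p = 0.0027). P4ha1, a collagen prolyl hydroxylase, went from 83.7 ± 13.4 to 34.8 ± 6.59 FPKM (-1.25, adjusted p = 0.0073). Eno2, the enolase isoform known from neurons, was at 11.6, 11.2, 18.8, 22.8 and 43.3 FPKM in FCS 1d and at 5.90, 3.38, 7.57 and 2.52 FPKM in FCS 5d (-1.87, adjusted p = 0.0051). For comparison, of 70 tested subunits of oxidative phosphorylation limma called 0, with 2 higher and 0 lower at an unadjusted p under 0.05, and their median log2 change was 0.08. The difference between these lists was not tested.

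The core letters TACGTG of the hypoxia response element, which the HIF factors bind, were searched on both strands from 250 bases before to 50 after each RefSeq gene start of the GRCr8 assembly. A gene counted if any of its listed starts held a match. The letters were present for 3.78% of 27457 genes and for 11 of the 33 glycolysis members matched. Of the 11 called members matched, 3 held them: Pgam1, Eno2 and P4ha1. The Eno2 promoter is shown as an example, chr4:159267171-159267470 on the minus strand, with the match in capitals. The motifs were chosen after values were seen, and a match is a description of the letters, not evidence of binding.
Eno2: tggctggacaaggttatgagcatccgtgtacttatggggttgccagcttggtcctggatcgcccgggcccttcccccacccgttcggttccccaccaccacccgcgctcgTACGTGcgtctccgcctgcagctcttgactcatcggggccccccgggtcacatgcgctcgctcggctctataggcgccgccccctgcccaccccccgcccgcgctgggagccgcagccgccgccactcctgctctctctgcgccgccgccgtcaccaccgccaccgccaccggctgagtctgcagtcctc

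Among 40 tested genes of the defence against oxidants, many of them known targets of the factor Nrf2, 10 were lower (25% of the list), 1 was higher and 29 were not called, with a median log2 change of -0.74. Hmox1, haem oxygenase, which frees iron from haem, was at 2440, 2880, 3530, 2210 and 1900 FPKM in FCS 1d and at 214, 480, 423 and 347 FPKM in FCS 5d. All FCS 5d libraries lay well below all FCS 1d libraries. The log2 change was -2.85 ± 0.28 (adjusted p = 6.6e-07). TIC libraries had 555 to 1150 FPKM of Hmox1, below every FCS 1d and above every FCS 5d library, and acute cells had 182 to 332.

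Prdx5, a peroxiredoxin that reduces peroxides, was at 1580, 1510, 2270, 2790 and 4400 FPKM in FCS 1d and at 302, 313, 405 and 240 FPKM in FCS 5d. The groups did not overlap, with a log2 change of -2.90 ± 0.40 (adjusted p = 4.8e-05). Akr1b8, an aldo-keto reductase, fell from 778 ± 258 to 100 ± 24.6 FPKM (-2.91, adjusted p = 9.1e-05), and Srxn1, sulfiredoxin, from 26.4 ± 9.14 to 4.17 ± 1.87 FPKM (-2.43, adjusted p = 0.0011). Slc7a11, the cystine importer that feeds glutathione synthesis, was at 2.26 to 5.79 FPKM and fell to 0.0546 to 0.735 FPKM (-1.66, adjusted p = 0.0013). The exception was Gpx3, a secreted glutathione peroxidase, which was at 1.21 to 12.4 FPKM in FCS 1d and at 19.3 to 70.6 FPKM in FCS 5d (2.91, adjusted p = 0.019). That call was lost without FCS 1d replicate 2 or 3 or without FCS 5d replicate 2 or 4.

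Fth1, the heavy chain of the iron store ferritin, was the most abundant gene that fell, at 19000, 20800, 30100, 23900 and 49000 FPKM in FCS 1d and 4090, 7210, 8230 and 4850 FPKM in FCS 5d. Its lowest FCS 1d library had more than the highest FCS 5d library. The mean fell from 28600 ± 12200 to 6100 ± 1940 FPKM, a log2 change of -2.20 (adjusted p = 0.00092). Slc11a1, which moves iron and manganese out of the phagosome, went from 271 ± 50.1 to 105 ± 23.6 FPKM (-1.36, adjusted p = 0.00034). Of 28 iron and haem genes 6 were lower (21.4%), 1, Ncoa4, was higher (3.57%) and 21 were not called. The shares of all genes were 3.46% lower and 1.92% higher, and the list's median log2 change was 0.16. Ncoa4 was not called without FCS 1d replicate 1, 2, 3 or 4 or FCS 5d replicate 2, 3 or 4, and without FCS 1d replicate 5 the count of higher genes was 2.

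In the antioxidant list the letters TGACNNNGC, the core of the antioxidant response element, were in 11 of the 34 members matched. They were in 13.1% of all genes searched. Of the 9 called members matched, 3 held them: Gclm, Prdx5 and Mt2A. The Prdx5 promoter is shown for its match at the gene start, chr1:213531978-213532277 on the minus strand, with the match in capitals, read on the other strand.
Prdx5: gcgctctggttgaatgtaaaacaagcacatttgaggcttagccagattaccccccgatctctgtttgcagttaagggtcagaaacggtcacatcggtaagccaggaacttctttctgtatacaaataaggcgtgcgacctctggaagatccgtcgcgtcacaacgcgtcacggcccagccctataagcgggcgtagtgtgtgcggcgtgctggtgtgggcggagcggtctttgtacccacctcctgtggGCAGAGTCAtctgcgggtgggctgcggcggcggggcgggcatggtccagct

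**Figure D3:**
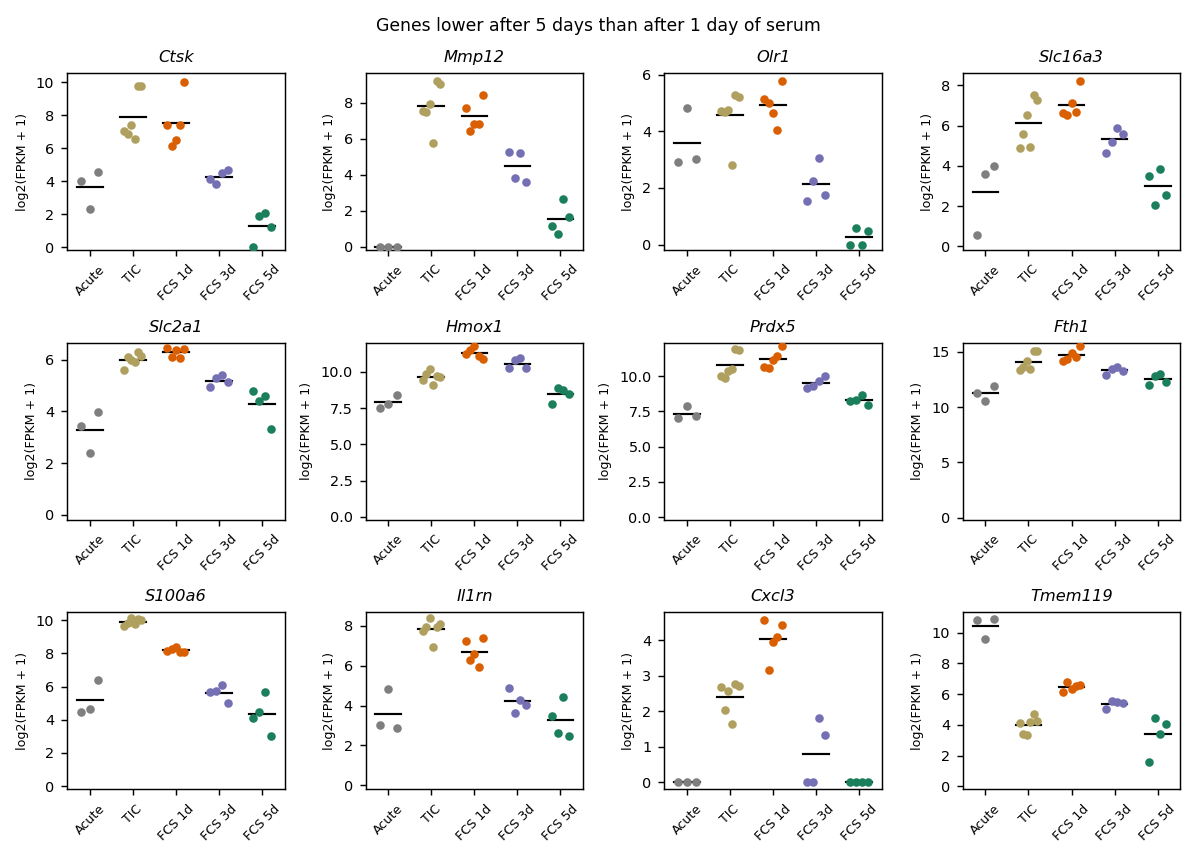
Each panel shows a gene that was lower at FCS 5d, as log2(FPKM + 1) in every library of the 5 groups, with a line at the group mean. In the 12 genes every FCS 5d point lies below every FCS 1d point, and the Acute, TIC and FCS 3d libraries are drawn for reference.

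In the list of cytokines and chemokines 11 of 40 tested genes were lower, 1, Cxcl13, was higher and 28 were not called. The uncalled genes included Il1b and Tnf, and the list's median log2 change was -0.90. The 11 lower genes included the receptors Ccr1 and Cxcr4 and the enzymes Ptgs2 and Nos2. Ptgs2 is also counted among the prostaglandin genes below. Il1rn, the antagonist of the interleukin 1 receptor, was at 148, 77.9, 95.8, 59.7 and 167 FPKM in FCS 1d and at 10.2, 5.21, 20.2 and 4.56 FPKM in FCS 5d. No library of FCS 5d came near those of FCS 1d. The log2 change was -3.43 ± 0.43 (adjusted p = 1.7e-05). Cxcl3, a chemokine that draws neutrophils, was at 22.7, 7.91, 14.5, 16.1 and 20.7 FPKM in FCS 1d and was listed at 0 in all 4 FCS 5d libraries (adjusted p = 3.3e-07). It resembles Cxcl1 closely in sequence, so that the authors' estimate may divide reads between them.

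Ccl9, a chemokine that binds the receptor Ccr1, fell from 47.1 ± 43.9 to 3.44 ± 2.06 FPKM (log2 change -3.10, adjusted p = 0.0013), and Ccr1 itself from 25.5 ± 7.97 to 2.01 ± 1.73 FPKM (-3.26, adjusted p = 0.0027). Csf1, the growth factor of macrophages, went from 12.9 ± 7.54 to 1.49 ± 0.379 FPKM (-2.36, adjusted p = 0.00029). Its receptor Csf1r did not pass, with 618 ± 47.3 and 700 ± 151 FPKM (0.16, adjusted p = 0.82, over the alternatives 0.51 to 1). Cxcr4, the receptor of Cxcl12, fell from 20.3 ± 16.5 to 1.46 ± 1.15 FPKM (-2.95, adjusted p = 0.0016).

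Il1b, the interleukin 1 beta gene, was at 341, 301, 423, 267 and 652 FPKM in FCS 1d and at 632, 462, 622 and 361 FPKM in FCS 5d, with overlap (log2 change 0.43, adjusted p = 0.54, over the alternatives 0.12 to 0.83). Tnf was at 14.2 ± 5.44 and 22.2 ± 7.12 FPKM (0.62, adjusted p = 0.58, over the alternatives 0.11 to 0.85). Ccl2, the monocyte chemoattractant, had 439 to 1670 FPKM in FCS 1d and 75.3 to 755 FPKM in FCS 5d (-1.91, adjusted p = 0.22, over the alternatives 0.011 to 0.92), and was called lower in the libraries of low summed FPKM alone (adjusted p = 0.011) and in those with few genes at 0 alone (0.026). Ccl4, a chemokine of activated macrophages, had 19.1 to 62.5 FPKM and 20.9 to 164 FPKM (1.44, adjusted p = 0.28, over the alternatives 0.031 to 0.56), and was called higher in the libraries of low summed FPKM alone (0.031).

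The called rise of the list, Cxcl13, a chemokine for B cells, was at 0, 0, 0.429, 0 and 0.800 FPKM in FCS 1d and at 88.1, 6.35, 41.8 and 3.12 FPKM in FCS 5d. All FCS 5d libraries were higher, and they spread over a wide range. The log2 change of 3.93 (adjusted p = 0.00091) became 3.17 without FCS 5d replicate 1 and 4.65 without replicate 4, when the count of higher genes in the list was 2. In the 4 FCS 3d libraries Cxcl13 was at 0 to 1.56 FPKM.

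Genes that make and sense prostaglandins and related lipids included 6 lower and 1 higher of 25 tested. Ptgs2, the inducible cyclooxygenase, was at 11.6, 4.89, 7.20, 10.0 and 0.961 FPKM in FCS 1d, and was listed at 0 in 3 FCS 5d libraries and at 0.267 in replicate 4 (adjusted p = 0.00048). Ptgs1, the constitutive cyclooxygenase, fell from 212 ± 17.6 to 90.2 ± 30.2 FPKM (log2 change -1.28, adjusted p = 0.00063). Pla2g7, the lipase that inactivates platelet-activating factor, went from 492 ± 149 to 69.4 ± 18.9 FPKM (-2.80, adjusted p = 4.1e-06). Ptges, a prostaglandin E synthase, was at 0.786 to 9.73 FPKM in FCS 1d and, in FCS 5d, at 0.454 in replicate 3 and listed at 0 in the others. The opposite was seen for Hpgds, the prostaglandin D synthase of myeloid cells, at 30.9, 52.9, 42.5, 30.8 and 56.4 FPKM in FCS 1d and at 119, 208, 192 and 172 FPKM in FCS 5d (2.01 ± 0.37, adjusted p = 0.0013). A synthase for prostaglandin D was thus higher in every FCS 5d library while the cyclooxygenases and a synthase for prostaglandin E were lower.

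Irg1, the enzyme that makes itaconate in activated macrophages, was at 17.8, 16.6, 11.3, 8.97 and 26.8 FPKM in FCS 1d and at 1.02, 0.358, 0.266 and 0 FPKM in FCS 5d, without overlap (log2 change -3.57 ± 0.33, adjusted p = 3.3e-07). The activating receptor Trem1 fell from 101 ± 36.8 to 11.3 ± 2.62 FPKM (-3.01, adjusted p = 8e-06). Clec4d, a lectin receptor for fungal and mycobacterial sugars, was at 5.35 to 46.4 FPKM and then at 0 to 0.680 FPKM (-3.98, adjusted p = 0.00025). Il2rg, the common gamma chain of interleukin receptors, fell from 85.5 ± 35.0 to 7.81 ± 4.81 FPKM (-3.37, adjusted p = 3.1e-05). Of 27 NF-kB and Toll-like receptor genes limma called 0 higher and 2 lower (7.41%, beside 3.46% of all genes), Tlr2 and Tlr3. At an unadjusted p under 0.05, 3 were higher and 7 lower, beside 663 and 1052 of all 9691 genes tested. The list's median log2 change was -0.40. The count called lower was 1 without FCS 1d replicate 2, 3, 4 or 5 or FCS 5d replicate 2 or 3. It was 0 without FCS 5d replicate 1. Tlr5, the flagellin receptor and no member of that list, rose from 1.67 ± 0.709 to 16.3 ± 6.12 FPKM (2.68, adjusted p = 8.2e-06).

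Few interferon-stimulated and antigen presentation genes were called, but most had a log2 change below 0. Of 45 interferon-stimulated genes 32 lay below 0, beside 5446 of all 9691 genes tested. The list's median was -0.30. Of the 45, 4 were called lower (8.89%, beside 3.46% of all genes), Ifit3, Oasl2, Usp18 and Lgals3bp. Ifit3 fell from 29.7 ± 14.4 to 4.72 ± 1.97 FPKM (log2 change -2.38, adjusted p = 0.00087), and Usp18, which removes the ubiquitin-like ISG15, from 41.3 ± 2.48 to 14.4 ± 8.25 FPKM (-1.72, adjusted p = 0.024). Usp18 was not called without FCS 1d replicate 3 or FCS 5d replicate 4. Limma called 0 of the list higher, with 4 at an unadjusted p under 0.05, where 12 were lower. Without FCS 1d replicate 2, 1 was called higher, and without FCS 5d replicate 4, 2 rather than 4 were called lower. Of 22 MHC class I and peptide loading genes 2 were lower (9.09%, beside 3.46% of all genes). The count was 0 to 2 with 1 library left out. Of these 22, 19 had a log2 change below 0, and at an unadjusted p under 0.05, 0 were higher and 7 lower. Of 14 MHC class II and invariant chain genes 1, Cd74, was lower (7.14%) and 12 had a log2 change below 0. Cd74, the invariant chain of MHC class II, was at 28.6, 4.44, 5.83, 13.1 and 21 FPKM in FCS 1d and at 1.82, 0.639, 4.27 and 0.404 FPKM in FCS 5d (-2.40, adjusted p = 0.0062), beside 848 to 3160 FPKM in acute cells.

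Of 34 integrins, annexins and S100 genes 5 were lower (14.7%) and 4 higher (11.8%), beside 3.46% and 1.92% of all genes. Of 42 actin cytoskeleton genes 1 was lower, Lsp1, and 1 was higher, Fscn1, or 2.38% each, near the shares of all genes. Fscn1 was not called without FCS 5d replicate 3 or 4. S100a6, a calcium-binding protein of motile and growing cells, was at 285, 301, 330, 271 and 267 FPKM in FCS 1d and at 16.3, 21, 49.6 and 7.24 FPKM in FCS 5d. The FCS 1d libraries were tight and all above FCS 5d. The fall was from 291 ± 25.6 to 23.5 ± 18.3 FPKM, a log2 change of -3.87 ± 0.39 (adjusted p = 9.4e-07), beside 972 ± 130 FPKM in TIC. Lsp1, an actin-binding protein of leukocytes, went from 126 ± 18.4 to 16.7 ± 7.24 FPKM (-2.91, adjusted p = 6.3e-07), and Cd44, the hyaluronan receptor, from 137 ± 26.9 to 36.7 ± 5.31 FPKM (-1.86, adjusted p = 0.00063). Itgb2, the beta chain of the leukocyte integrins, fell from 253 ± 60.7 to 106 ± 28.6 FPKM (-1.25, adjusted p = 0.0019). Itga4, the alpha chain that binds fibronectin and VCAM1, rose from 10.6 ± 3.10 to 45.2 ± 4.62 FPKM (2.03, adjusted p = 0.0013) and was close to the 44.0 ± 6.46 FPKM of TIC. The count of higher integrins, annexins and S100 genes was 2 without FCS 1d replicate 1, 2, 4 or 5 or FCS 5d replicate 2 or 4, and 1 without FCS 5d replicate 3.

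Genes that mark resting microglia did not move as a block: of 33 tested, 4 were lower, 2 were higher and 27 were not called. The shares were 12.1% lower and 6.06% higher, beside 3.46% and 1.92% of all genes. The list's median log2 change was -0.19. Tmem119, a membrane protein used to tell microglia from other macrophages, was at 70.5, 111, 79.1, 89.8 and 96.1 FPKM in FCS 1d and at 2.01, 21.3, 9.72 and 15.9 FPKM in FCS 5d. The FCS 5d libraries were all lower, replicate 1 most. The log2 change was -3.09 ± 0.42 (adjusted p = 4.3e-05), and -2.49 without FCS 5d replicate 1. Tmem119 stood at 760 to 1860 FPKM in acute cells and at 16.1 ± 6.10 FPKM in TIC, so the FCS 5d level was near that of cells without serum. P2ry13, a purine receptor, moved the other way, at 1.89, 0, 0.924, 2.44 and 4.31 FPKM in FCS 1d and at 8.63, 15.2, 12.9 and 36.0 FPKM in FCS 5d (2.74 ± 0.57, adjusted p = 0.0036).

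P2ry12, the purine receptor by which microglia sense injury, was at 7.63, 12.8, 4.11, 16.5 and 9.06 FPKM in FCS 1d and at 8.71, 27.0, 7.28 and 47.7 FPKM in FCS 5d. The groups overlapped, and in both the replicates numbered 2 and 4 were above those numbered 1 and 3. It did not pass (log2 change 0.84, adjusted p = 0.41, over the alternatives 0.082 to 0.98) and was far below the 321 to 946 FPKM of acute cells. Cx3cr1, the fractalkine receptor, was at 112 ± 41.4 and 43.5 ± 33.4 FPKM (-1.58, adjusted p = 0.23, over the alternatives 0.056 to 0.5). Sall1, a transcription factor that defines microglia, was at 1.77 ± 0.562 and 2.33 ± 0.747 FPKM (0.26, adjusted p = 0.77, over the alternatives 0.56 to 0.96), beside 45.2 to 126 FPKM in acute cells. Gpr84, a fatty acid receptor, fell from 100 ± 61.9 to 14.5 ± 4.02 FPKM (-2.49, adjusted p = 0.0069).

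Among 32 transcription factors of microglia and macrophages limma called 5 lower, Cebpa, Cebpb, Mitf, Bhlhe40 and Hif1a, and 0 higher, with 0 higher at an unadjusted p under 0.05. The 5 calls were sensitive to single libraries: the count was 3 without FCS 1d replicate 2, 3 or 4 or FCS 5d replicate 3, 2 without FCS 1d replicate 1 or 5 or FCS 5d replicate 2 or 4, and 1 without FCS 5d replicate 1. Hopx, a small homeodomain protein, fell from 31.5 ± 8.89 FPKM to 0, 3.35, 3.31 and 1.41 FPKM in the FCS 5d libraries (log2 change -3.59, adjusted p = 5.1e-06).

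The TGF-beta and BMP pathway, which keeps microglia in their resting state in the brain, showed 5 lower and 2 higher of 27 tested genes. Tgfbr1, the type I receptor, fell from 80.9 ± 20.1 to 18.6 ± 2.84 FPKM (log2 change -2.04, adjusted p = 0.0021), and Eng, the co-receptor endoglin, from 191 ± 10.7 to 68.4 ± 36.8 FPKM (-1.60, adjusted p = 0.0025). The higher genes were Nrros, which anchors latent TGF-beta on microglia, and Id3, an inhibitor of basic helix-loop-helix factors and a BMP target. Id3 was at 36.5, 32.1, 26.8, 29.3 and 69.4 FPKM in FCS 1d and at 44.0, 282, 90.0 and 261 FPKM in FCS 5d. These groups overlapped and the call (1.82, adjusted p = 0.039) was lost without FCS 1d replicate 1, 2, 3 or 4 or FCS 5d replicate 2, 3 or 4, each of which left 1 higher member. Id1, a related target, was at 67.0 ± 20 and 36.6 ± 27.0 FPKM and did not pass (-1.17, adjusted p = 0.41, over the alternatives 0.11 to 0.77).

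Of 33 tested genes known to be raised in microglia around plaques and in disease, 9 were lower, among them Cst7, Ctsl, Csf1 and Fth1 described above, 1, Lpl, was higher and 23 were not called, with a median log2 change of -0.87. Clec7a, the beta-glucan receptor, fell from 39.3 ± 13.9 to 10.3 ± 4.42 FPKM (log2 change -1.85, adjusted p = 0.0083). Spp1, osteopontin, was at 17000, 2700, 24500, 2920 and 11100 FPKM in FCS 1d and at 4190, 352, 6010 and 63.0 FPKM in FCS 5d. The groups overlapped, and replicates 1 and 3 were higher than 2 and 4 in both. The gene did not pass (-3.23 ± 1.24, adjusted p = 0.15, over the alternatives 0.00041 to 0.98), and it was called lower with the replicate number as a block (-3.02, adjusted p = 0.00041). Gpnmb, a glycoprotein of lipid-laden macrophages, was at 4280 ± 2310 and 2210 ± 572 FPKM. Every FCS 5d library (1400 to 2680) was below every FCS 1d library (2980 to 8380), but Gpnmb did not pass (-0.87, adjusted p = 0.19, over the alternatives 0.057 to 0.79). Trem2, a lipid receptor, was at 455 ± 269 and 283 ± 73.2 FPKM (-0.55, adjusted p = 0.66, over the alternatives 0.24 to 0.9), and Apoe at 1260 ± 1130 and 2000 ± 1240 FPKM (0.80, adjusted p = 0.63, over the alternatives 0.026 to 0.91). With the replicate block Apoe was called higher (1.29, adjusted p = 0.026).

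Lipid genes changed in part. Lpl, lipoprotein lipase, which frees fatty acids from lipoproteins, was at 162, 101, 137, 120 and 251 FPKM in FCS 1d and at 587, 490, 626 and 225 FPKM in FCS 5d. In FCS 5d replicate 4 alone lay within the FCS 1d range (log2 change 1.61 ± 0.32, adjusted p = 0.0029). Cells without serum (TIC) had 670 ± 113 FPKM of Lpl. Olr1, a receptor for oxidised lipoprotein, was at 34.1, 30.8, 24.1, 15.4 and 53.2 FPKM in FCS 1d and at 0, 0.512, 0 and 0.388 FPKM in FCS 5d, with no overlap (-4.65 ± 0.47, adjusted p = 9.4e-07). Fabp5, a fatty acid carrier, went from 630 ± 309 to 248 ± 122 FPKM (-1.37, adjusted p = 0.044), a call lost without FCS 1d replicate 3, 4 or 5 or FCS 5d replicate 1 or 4. Of 29 genes of lipid uptake, binding and storage 5 were lower and 2 higher. The lower count was 3 without FCS 1d replicate 3 or 5 or FCS 5d replicate 4 and 2 without FCS 1d replicate 4 or FCS 5d replicate 1, and the higher count was 1 without FCS 1d replicate 1 or FCS 5d replicate 1 or 3.

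The desaturases that make monounsaturated fatty acids were lower after the longer exposure. Scd2 fell from 69.4 ± 5.92 to 21.6 ± 10.2 FPKM (log2 change -1.73, adjusted p = 0.0045), and was at 450 ± 84.7 FPKM in TIC. Scd1, a close relative with which it may share reads, was at 1.56 to 2.99 FPKM in FCS 1d and listed at 0 in all FCS 5d libraries (adjusted p = 0.00022). Msmo1, an enzyme of sterol synthesis, went from 35.9 ± 8.68 to 12.2 ± 4.22 FPKM (-1.51, adjusted p = 0.0018), but of 29 sterol genes 27 were not called. The 2 called lower made up 6.9%, beside 3.46% of all genes. Their count became 1 without FCS 1d replicate 1 or 5 or FCS 5d replicate 2, 3 or 4. Srebf1, which drives fatty acid synthesis, was at 8.41 ± 2.04 and 6.41 ± 0.313 FPKM (-0.32, adjusted p = 0.62, over the alternatives 0.33 to 0.98), beside 52.9 ± 8.30 in TIC. Abca1, the cholesterol exporter, was at 34.7 ± 8.26 and 23.1 ± 9.94 FPKM (-0.64, adjusted p = 0.2, over the alternatives 0.055 to 0.56).

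Of 20 complement genes tested 5 were higher and 2 lower. The classical pathway starts with C1q, a protein built from the chains of C1qa, C1qb and C1qc, which in the brain is made mainly by microglia and tags synapses and debris for removal. C1qa was at 66.7, 60.3, 114, 84.6 and 52.2 FPKM in FCS 1d and at 422, 552, 666 and 719 FPKM in FCS 5d. C1qb was at 95.8, 71.0, 112, 152 and 97.2 FPKM in FCS 1d and at 667, 1150, 868 and 2190 FPKM in FCS 5d. C1qc was at 51.9, 24.2, 86.2, 111 and 70.3 FPKM in FCS 1d and at 286, 728, 693 and 1450 FPKM in FCS 5d. For each chain, the lowest FCS 5d library was above the highest FCS 1d library.

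The C1q rises were 7.80-fold, 11.5-fold and 11.5-fold as ratios of the means. On the log2 scale they were 2.97 ± 0.37 (adjusted p = 1.3e-05), 3.41 ± 0.38 (4.2e-06) and 3.45 ± 0.47 (4.8e-05). Cells without serum had 18.2 ± 7.48, 25.7 ± 15.4 and 20.8 ± 12.5 FPKM, and acute cells 1200 to 5020, 3520 to 8150 and 2680 to 6880 FPKM, so FCS 5d lay between. Cfp, properdin, which stabilises the alternative pathway convertase, rose from 10.8 ± 9.84 to 144 ± 99.0 FPKM (3.77 ± 0.49, adjusted p = 2.2e-05). C3, the central component, rose from 16.9 ± 9.19 to 75.2 ± 22.2 FPKM (2.16, adjusted p = 0.0035). C5ar1, the receptor for the C5a fragment, fell from 327 ± 76.7 to 134 ± 43.0 FPKM (-1.30, adjusted p = 0.0032). The other lower gene was Clu. The lower count was 1 without FCS 1d replicate 1, 4 or 5 or without any 1 of the FCS 5d replicates.

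Markers of border macrophages, the macrophages of the meninges and of the spaces around brain vessels, rose in part. Mrc1, the mannose receptor, was at 16.8, 11.5, 9.72, 10.7 and 15.3 FPKM in FCS 1d and at 77.9, 112, 89.7 and 137 FPKM in FCS 5d. Every FCS 5d library was well above every FCS 1d library. The rise was 8.13-fold in the means and 2.92 ± 0.28 in log2 (adjusted p = 5e-07), and acute cells had 3.43 to 5.30 FPKM. Lyve1, the hyaluronan receptor, was at 3.10, 6.34, 7.87, 6.87 and 2.26 FPKM in FCS 1d and at 19.8, 75.1, 16.1 and 205 FPKM in FCS 5d, without overlap and with a wide spread at FCS 5d. Its log2 change of 3.05 (adjusted p = 0.0029) was 2.36 without FCS 5d replicate 4. Unlike Mrc1, Lyve1 was at 49.2 to 127 FPKM in acute cells, within the range of the FCS 5d libraries.

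Colec12, a collectin scavenger receptor, was at 4.62, 4.30, 7.92, 6.65 and 7.54 FPKM in FCS 1d and at 47.5, 63.5, 57.5 and 55.8 FPKM in FCS 5d, a narrow range far above it (log2 change 3.01 ± 0.43, adjusted p = 6.8e-05). The FCS 3d libraries had 2.93 to 12.0 FPKM, all below those of FCS 5d. Siglec1, a sialic acid receptor, was at 1.43 to 6.20 FPKM and 5.53 to 13.2 FPKM, which overlap, and its call (1.18, adjusted p = 0.038) was lost without FCS 1d replicate 1, 3 or 5 or FCS 5d replicate 1, 2 or 3. Of 17 markers tested 5 were higher and 1, Ccr1, was lower, with a median log2 change of 0.22. Cd163, another defining marker, was too low to be tested: it was listed at 0 in all FCS 1d libraries and in FCS 5d replicates 1 and 3, and at 0.636 and 0.575 FPKM in replicates 2 and 4. Whether a different share of such cells had a part in the result was not tested.

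Genes for the uptake of particles divided, with 7 higher and 6 lower of 35 tested. The higher members were Colec12, Mrc1, Siglec1, Fcgr3a, Itgb5, Clec4a1 and Clec4a3, and the lower ones Mfge8, Scarb2, Fcgr2a, Fcgr2b, Cd300a and Clec7a. Clec4a1 rose from 73.5 ± 34.8 to 281 ± 57.5 FPKM (log2 change 2.02, adjusted p = 0.0038). The Clec4a and Fcgr genes belong to families of similar sequence, so their separate values are uncertain. Without FCS 5d replicate 1 or 3 the lower count was 3.

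**Figure D4:**
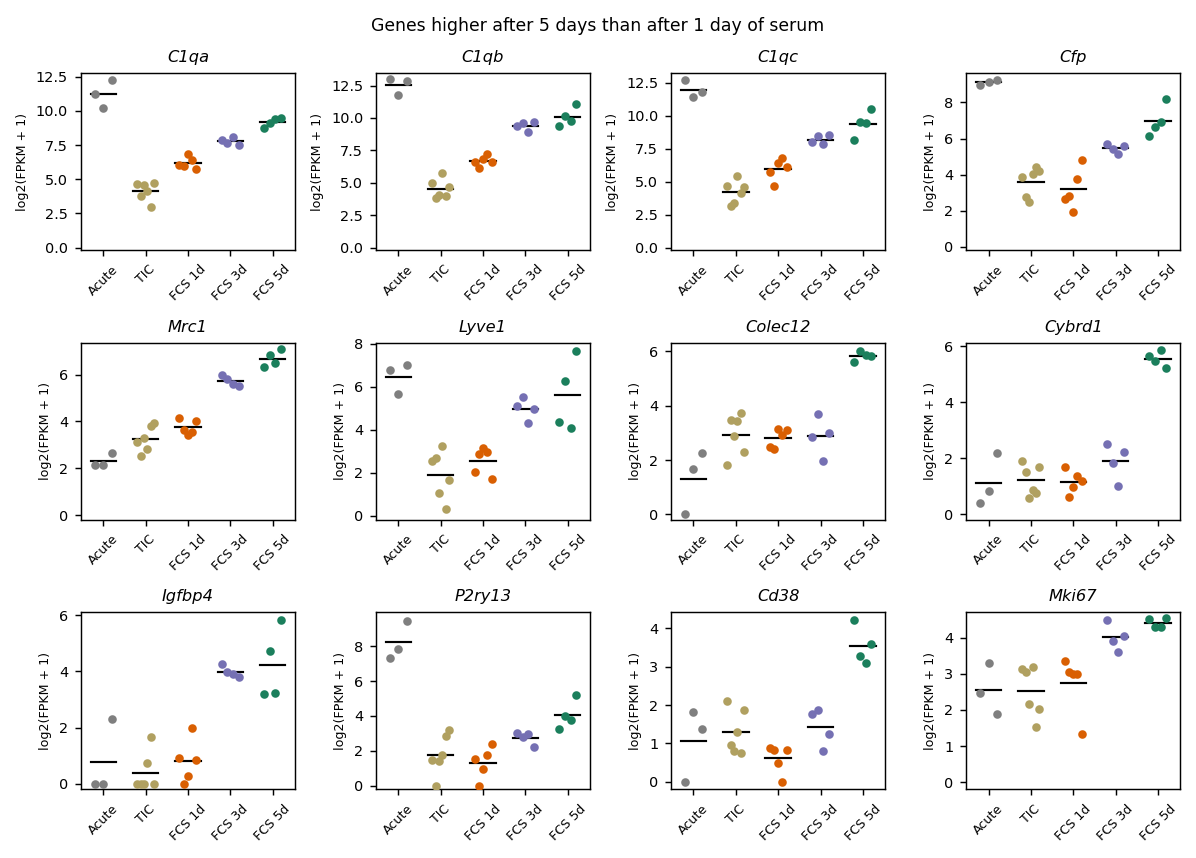
Each panel shows a gene that was higher at FCS 5d, as log2(FPKM + 1) in every library of the 5 groups, with a line at the group mean. All FCS 5d points lie above all FCS 1d points, Cybrd1, Colec12 and Cd38 are high at FCS 5d while FCS 3d libraries stay near those of FCS 1d, and the C1q genes step up through FCS 3d.

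The largest rise of all called genes was in Cybrd1, a ferric reductase that readies iron for import, at 2.24, 0.522, 0.960, 1.59 and 1.28 FPKM in FCS 1d and at 48.7, 42.9, 56.5 and 35.9 FPKM in FCS 5d. The groups were wide apart and each was narrow. The rise was 34.9-fold in the means and 4.37 ± 0.38 in log2 (adjusted p = 3.2e-07), while FCS 3d libraries had 0.996 to 4.75 FPKM and TIC 1.46 ± 0.916. Cd38, which breaks down NAD, was at 0 to 0.849 FPKM in FCS 1d and at 7.60 to 17.5 FPKM in FCS 5d (2.93, adjusted p = 2.4e-05). Igfbp4, which binds insulin-like growth factors, was at 0 to 2.96 FPKM and then at 8.06 to 55.2 FPKM (3.44, adjusted p = 0.00029). Rarres1, a gene induced by retinoic acid, rose from 18.4 ± 12.7 to 173 ± 98.3 FPKM (3.22, adjusted p = 0.00079), and Aebp1, a secreted carboxypeptidase-like protein, from 0.483 ± 0.153 to 9.90 ± 2.57 FPKM (2.85, adjusted p = 9.6e-06).

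Other large falls were in transporters and signalling genes. Abcb1b, a drug efflux pump, fell from 30.7 ± 13.3 to 1.64 ± 0.831 FPKM (log2 change -3.54, adjusted p = 3.5e-06). Hsd11b1, which regenerates active glucocorticoid, was at 6.95 to 51.7 FPKM in FCS 1d and, in FCS 5d, at 1.42 in replicate 1 and listed at 0 in the others (-3.76, adjusted p = 0.00021). Pdgfa, a chain of platelet-derived growth factor, was at 10.4 to 59.3 FPKM and then at 0 to 2.35 FPKM (-3.53, adjusted p = 0.0018). Lyc2, a lysozyme that resembles the Lyz2 gene in sequence, was at 992, 1300, 1100, 1320 and 1770 FPKM in FCS 1d and at 0.696, 146, 79.7 and 65.0 FPKM in FCS 5d. Its replicate 1 at FCS 5d was far below the rest, and the log2 change of -5.23 (adjusted p = 0.00063) became -3.79 without that library and -5.93 without FCS 5d replicate 2. How reads were divided between the lysozyme genes is not given in the sources used here.

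Genes of cell division were among those higher after 5 days of serum. Of 67 mitosis and G2/M genes tested 22 were higher, all 67 had a log2 change above 0, and the median was 1.06. Limma called 0 lower, and 0 were lower at an unadjusted p under 0.05, where 56 were higher. The median FPKM of the list was 8.08, 8.30, 6.20, 9.18 and 4.85 in the FCS 1d libraries and 13.2, 16.3, 15.0 and 17.9 in the FCS 5d libraries, so that no FCS 5d library was as low as any of FCS 1d and FCS 1d replicate 5 was the lowest. The number called depended on single libraries: it was 10 without FCS 1d replicate 3 or FCS 5d replicate 3, 8 without FCS 5d replicate 2 or 4, and 7 without FCS 1d replicate 5.

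Mki67, the marker of cycling cells, was at 9.18, 7.30, 7.00, 6.95 and 1.5 FPKM in FCS 1d and at 21.9, 18.7, 18.6 and 22.3 FPKM in FCS 5d. The FCS 5d libraries were close together and all higher, and FCS 1d replicate 5 was low. The log2 change was 1.67 ± 0.40 (adjusted p = 0.013). Pttg1, securin, which holds sister chromatids together until anaphase, was at 9.97, 24.1, 19.5, 20.6 and 13.7 FPKM in FCS 1d and at 41, 83.0, 61.9 and 69.5 FPKM in FCS 5d (1.82 ± 0.33, adjusted p = 0.0013). Ube2c, the ubiquitin-conjugating enzyme of the anaphase-promoting complex, rose from 41.8 ± 7.31 to 146 ± 22.6 FPKM (1.78, adjusted p = 0.0016). Ect2, which drives cleavage of the dividing cell, rose from 5.58 ± 3.09 to 18.8 ± 2.47 FPKM (1.75, adjusted p = 0.014).

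Cdk1, the kinase that starts mitosis, was at 54.7, 41.9, 36.6, 56.9 and 22.8 FPKM in FCS 1d and at 77.1, 113, 98.3 and 105 FPKM in FCS 5d. All FCS 5d libraries were higher (log2 change 1.25 ± 0.33, adjusted p = 0.026). Top2a, the topoisomerase that untangles chromosomes, rose from 7.66 ± 3.73 to 22.4 ± 6.44 FPKM (1.53, adjusted p = 0.029). The calls of Cdk1 and Top2a were lost without FCS 1d replicate 3 or 5 or FCS 5d replicate 2, 3 or 4. In the FCS 3d libraries Cdk1 was at 88.5 to 120 FPKM and Ube2c at 141 to 200 FPKM, in the range of FCS 5d.

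Of 58 genes of DNA replication tested 4 were higher (6.9%, beside 1.92% of all genes), among them Mcm6, Mcm7 and Tk1. Of the 58, 54 had a log2 change above 0, with a median of 0.72. Limma called 0 lower, and 0 were lower at an unadjusted p under 0.05, where 27 were higher. Mcm7, a subunit of the replicative helicase, rose from 18.6 ± 6.40 to 37.8 ± 4.13 FPKM (log2 change 1.04, adjusted p = 0.0079). Tk1, thymidine kinase, rose from 23.7 ± 7.34 to 57.1 ± 16 FPKM (1.24, adjusted p = 0.011), a call lost without FCS 5d replicate 2. The count was 2 without FCS 1d replicate 2, 3 or 5 or FCS 5d replicate 3, and 1 without FCS 5d replicate 2. Of 26 cell cycle inhibitors and D-type cyclins limma called 0 higher and 1 lower (3.85%, near the 3.46% of all genes). At an unadjusted p under 0.05, 1 was higher and 6 were lower. The called gene was the stress gene Gadd45a, at 4.72 to 20.8 FPKM in FCS 1d and 0 to 2.35 FPKM in FCS 5d (-2.43, adjusted p = 0.0005).

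Hist2h4, a histone H4 gene, was listed at 0 in all FCS 1d libraries and was at 16.5, 3.88, 2.87 and 3.68 FPKM in FCS 5d (adjusted p = 2.3e-05). Histone H4 genes are nearly identical copies and their RNA mostly lacks a poly-A tail, so the value of this 1 copy is uncertain.

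**Figure D5:**
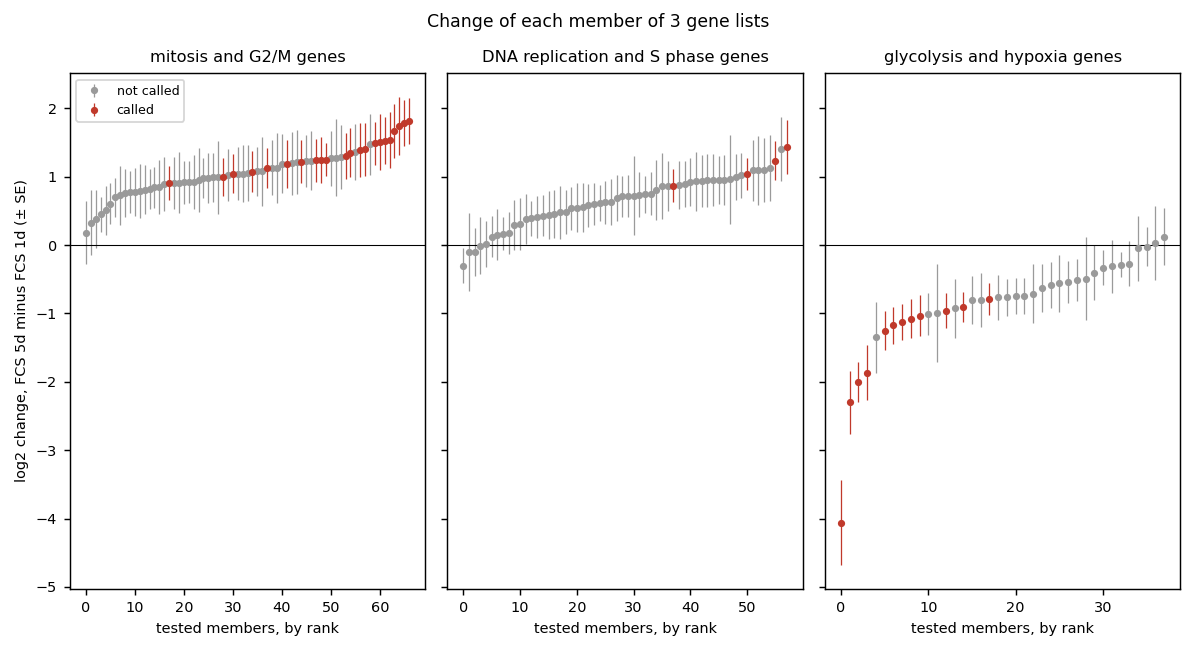
Points give the log2 change (FCS 5d minus FCS 1d) of each tested member of 3 lists, ordered by size, with bars of 1 SE and called members in red. All 67 mitosis genes and 54 of 58 replication genes lie above 0, and 36 of 38 glycolysis genes lie below it.

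Promoters of mitosis genes are known to carry the cell cycle genes homology region, TTTGAA, near a CCAAT box. In the same RefSeq promoter windows, TTTGAA on either strand was in 19.4% of all genes searched. It was in 40 of the 58 mitosis members matched and in 8 of 47 replication members matched. CCAAT was in 39.6% of all, in 42 of the 58 and in 28 of the 47. Of the 18 called mitosis members matched, 14 held TTTGAA and 16 held CCAAT. The E2F-type letters TTTGGCGC were in 0.554% of all genes and in 8 of the 47 replication members. The E2F-type letters TTTCCCGC were in 1.09% of all and in 8 of the 47. The promoters of Cdk1 (chr20:19265043-19265342, plus strand), Pttg1 (chr10:28406277-28406576, minus strand) and Ect2 (chr2:111966577-111966876, minus strand), whose values are given above, show the arrangement, with both motifs in capitals on either strand.
Cdk1: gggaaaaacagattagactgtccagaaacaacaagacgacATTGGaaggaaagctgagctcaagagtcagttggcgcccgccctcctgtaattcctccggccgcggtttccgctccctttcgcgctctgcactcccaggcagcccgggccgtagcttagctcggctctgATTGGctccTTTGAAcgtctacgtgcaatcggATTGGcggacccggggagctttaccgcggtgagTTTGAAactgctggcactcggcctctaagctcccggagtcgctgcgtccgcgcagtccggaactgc
Pttg1: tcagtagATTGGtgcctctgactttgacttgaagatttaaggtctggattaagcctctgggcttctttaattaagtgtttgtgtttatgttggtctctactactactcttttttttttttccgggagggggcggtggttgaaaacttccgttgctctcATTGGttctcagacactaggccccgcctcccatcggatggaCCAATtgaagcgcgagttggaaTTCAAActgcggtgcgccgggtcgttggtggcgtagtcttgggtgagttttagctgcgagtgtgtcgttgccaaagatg
Ect2: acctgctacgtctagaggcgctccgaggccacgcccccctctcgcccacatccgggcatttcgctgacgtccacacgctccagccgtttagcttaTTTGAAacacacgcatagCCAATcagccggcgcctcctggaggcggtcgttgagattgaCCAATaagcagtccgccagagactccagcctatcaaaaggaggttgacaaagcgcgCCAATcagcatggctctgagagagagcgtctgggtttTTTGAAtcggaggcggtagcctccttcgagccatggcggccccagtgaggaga

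Of 79 genes for cytosolic ribosomal proteins 4 were higher, Rpl5, Rpsa, Rps4x and Rps12, or 5.06%, beside 1.92% of all genes, and 75 were not called. All 79 had a log2 change above 0, from 0.02 to 1.65 with a median of 0.64. Rps12 went from 104 ± 21.7 to 245 ± 52.8 FPKM (log2 change 1.23, adjusted p = 0.021), a call lost without FCS 1d replicate 1 or 5 or FCS 5d replicate 2 or 4. The median FPKM of the list was 201, 270, 305, 401 and 411 in FCS 1d and 351, 531, 486 and 551 in FCS 5d, so the groups overlapped. Limma called 0 lower, and 0 were lower at an unadjusted p under 0.05, where 27 were higher. The count called was 2 without FCS 1d replicate 1, 3 or 5 or FCS 5d replicate 2, and 0 without FCS 5d replicate 4. Beside this stands the share of the 10 highest genes given above, which was lower in every FCS 5d library, and its part in the result was not tested. Quantile normalization moved the median of all genes from -0.07 to 0.04. Relative to that median the list stood at 0.71 in the fit as reported and at 0.55 after quantile normalization, when 78 of 79 were above 0.

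In the pathway that answers to amino acid shortage and unfolded protein, 3 of 40 genes were higher and 3 lower. Each was 7.5% of the list, beside 1.92% higher and 3.46% lower among all genes. Phgdh, the first enzyme of serine synthesis, rose from 7.08 ± 2.97 to 23.9 ± 10.7 FPKM (log2 change 1.60, adjusted p = 0.0051). Psat1, the next enzyme, was at 0 to 1.21 FPKM and then at 2.14 to 5.01 FPKM (1.5, adjusted p = 0.0055). Cells without serum (TIC) had 21.9 ± 5.99 FPKM of Phgdh and 1.82 to 6.16 FPKM of Psat1, near the FCS 5d levels. The lower members were Slc7a11, Dnajb9 and Xbp1.

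Many markers of other cells were at 0. All 8 listed red blood cell genes were at 0 in the 9 libraries, and all 13 fibroblast genes were under 1 FPKM, with 8 at 0. Of 27 neutrophil and monocyte genes 14 were at 0, including S100a9, Mpo and Elane, and 18 were under 1 FPKM in all 9 libraries. The list's summed level was 0.0197 to 0.0617% of the FPKM in FCS 1d and 0.00986 to 0.0192% in FCS 5d. Of 22 lymphocyte genes 13 were at 0, including Cd3e, and 15 were under 1 FPKM. Their summed level was 0.0423 to 0.0616% and 0.0371 to 0.0615%. Oligodendrocyte, astrocyte, neuron and endothelial lists had 9 of 18, 8 of 14, 10 of 15 and 8 of 16 genes at 0.

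Other genes of these lists were expressed and some were called. In the neutrophil and monocyte list 4 of 22 tested genes were lower, Trem1, described above, Lcn2, Vcan and Il1r2, and 1, Plac8, was higher, and without FCS 5d replicate 1 or 4 the lower count was 2. The part of such cells in these results was not tested. Il7r fell from 37.0 ± 10.7 to 6.92 ± 1.68 FPKM (log2 change -2.24, adjusted p = 2e-05). Cd79b, a B cell receptor chain, was at 0 to 1.47 FPKM in FCS 1d and at 1.80 to 7.05 FPKM in FCS 5d (1.82, adjusted p = 0.005), beside 50.9 to 154 FPKM in acute cells. Plac8 was at 0 to 7.84 FPKM and then at 15.3 to 23.9 FPKM (2.75, adjusted p = 0.0022). In the endothelial and mural list 1 of 6 tested genes was lower, Tek, and 1 was higher, Cdh5, with a median log2 change of 0.45, and Cdh5 was not called without FCS 1d replicate 1, 3, 4 or 5 or FCS 5d replicate 1 or 3. Tek, the angiopoietin receptor, was at 3.79 to 9.74 FPKM and then at 0 to 1.49 FPKM (-2.35, adjusted p = 0.0013).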

How the data were processed

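Of the 22 sequenced samples, the 9 of FCS 1d and FCS 5d are compared. The values are FPKM as deposited by the authors, in 1 table with 1 column per sample. Per the labels' protocols, poly-A RNA was turned into libraries by SmartSeq2 and Nextera XT tagmentation and read in pairs. Per the submitters' processing notes, the tools were HISAT2 2.0.3 and Cufflinks 2.2.1 and the build was rn6. The annotation is not given in the sources used here, nor is any filter. Fragment counts are not given, so only relative depth could be read from the steps of low values. Samples are called biological replicates in the design text, which does not say which share animals, so p-values measure the spread between these samples.

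FPKM were taken as log2(FPKM + 1), and a gene was tested where 3 or more of the 22 samples reached 1 FPKM. A linear model with 5 group means was fitted to all samples (limma 3.58.1, R 4.3.3), with trended and robust moderated variances. Tests were two-sided, and p-values were Benjamini-Hochberg adjusted over 9691 genes, with a call under 0.05. Changes are on the log2(FPKM + 1) scale, which understates those of low genes. Errors are SD between libraries, or SE of a log2 change. A listed 0 may be a failed estimate, so such groups are given by library. Reads of near-identical genes may be divided between them.

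The members and the 44 gene lists were chosen with earlier results of these data known, and lists share genes. Named genes were the 20 largest rises and 20 largest falls without overlap, up to 5 called members a list and up to 2 the other way, and 33 set genes; the text gives part of them, and some are not reported here. Promoters came from RefSeq (GRCr8), matched by symbol, and were used for sequence alone; motifs were searched with Python 3.11.15. The pseudocount, filter, scaling, model, replicate block and libraries were varied in turn.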

Additional observations from a re-analysis of the deposited data

Results flagged for a closer look

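A library lay far from the others of its group in 13 of 227 pairs of a gene and a group, by the gap to its neighbour as a share of the group's range. Chance flags about 1 in 20. Replicate 5 of FCS 1d, which had the highest summed FPKM of the 9 libraries compared, was the outlying one in 7 of them. Within TIC, replicates 5 and 6, also of high summed FPKM, were highest for Atp6v0d2, Gpnmb, Lipa and Tgm2 and lowest for Mki67. They were not both highest for P4ha1 and Slc11a1. It was high for Atp6v0d2 (131 FPKM, against 8.94 to 13.2), Gpnmb (8380, against 2980 to 3690), Lipa (294, against 150 to 166), P4ha1 (107, against 73.6 to 80.9), Slc11a1 (360, against 241 to 256) and Tgm2 (70.8, against 11.6 to 19.0), and low for Mki67 (1.5, against 6.95 to 9.18).

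The other FCS 1d cases were Hopx in replicate 3 (16.3 FPKM, against 31.5 to 38.9) and Slc7a11 in replicate 1 (5.79, against 2.26 to 2.65). In FCS 5d, Hist2h4 was high in replicate 1 (16.5, against 2.87 to 3.88). The remaining FCS 5d cases were genes listed at 0 in the other libraries: Hsd11b1 in replicate 1 (1.42 FPKM), Ptges in replicate 3 (0.454) and Ptgs2 in replicate 4 (0.267). What set these libraries apart was not tested.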

How the results depend on the processing

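The 521 called genes (186 higher, 335 lower) became 467 to 535 with a pseudocount of 0.1 or 5, no filter, or a filter at 5 FPKM. Higher genes were 311 of 707 called with median-of-ratios rescaling, 332 of 734 with quantile normalization and 318 of 707 with a term for the summed FPKM. A term for the number of genes at 0 gave 817 called, 280 higher and 537 lower. Libraries with a summed FPKM under 5e+05 alone gave 994, 452 higher and 542 lower. The libraries with many genes at 0 alone gave 46, 5 higher and 41 lower, from 1 FCS 5d library, assumed to vary like the other groups. Leaving out 1 library gave 344 to 456 called, 111 to 163 higher and 233 to 298 lower. Without FCS 5d replicate 2 the count was 344. Higher genes were 123 without FCS 1d replicate 3, 117 without FCS 5d replicate 3 and 114 without FCS 5d replicate 4. The cause was not tested.

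With the replicate number as a block 762 genes were called, 351 higher and 411 lower, of which 496 were among the 521. Deviations of same-numbered libraries correlated at 0.27, -0.02, 0.16 and 0.22. No label ties equal numbers, and 1 of the correlations was not over 0.1, so the numbers were not taken as a pairing. Among FCS 1d replicates 1 to 4, 3 of 4 FCS 5d libraries correlated best with their own number, a hint from the data that they share something. Replicate 5 of FCS 1d was left out of that search.

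Of the genes given with values in the text 100 were called. All 100 kept their call under both rescalings and 92 with the pseudocount of 0.1. Without any 1 library, 93 to 98 kept it, and 21 did in the libraries with many genes at 0. Directions reversed for genes not called: Csf1r after quantile normalization (-0.005) and in the libraries with many genes at 0 (-0.153), and P2ry12 in the latter (-0.167).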
